A study of Nematostella vectensis with 66 samples.

Results

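The comparison set the 7 libraries of ZT10 against the 7 libraries of ZT9, that is 14 of the 66 RNA libraries of an hourly field series of the starlet sea anemone Nematostella vectensis. The libraries were chosen by their hour as the labels give it, and each hour held 4 libraries of single animals (letters A to D) and 3 libraries of pools of 2 animals (letters E to G). ZT counts hours from the start of the light phase, and ZT9 and ZT10 were 14 h and 15 h on the clock. All animals were adults from a laboratory stock descended from a Massachusetts marsh, untreated, adjusted to a salinity of 30 ppt and kept in mesh pens in a marsh pool with restricted tide. ZT8 was used as a reference hour with 7 libraries of the same makeup, and the other hours of the 10 sampled gave the level over the day. Only 1 day was sampled. The labels do not tie animals to pens, so pen and hour cannot be told apart.

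Nematostella vectensis burrows in the mud of estuarine marshes, where light, temperature, salinity and oxygen shift through the day and with the tide. Like other cnidarians it has no brain but does have a circadian clock, and in the laboratory its movement and the transcripts of many genes follow the light cycle. RNA of whole animals mixes epidermis, gastrodermis, muscle, nerve and stinging cells. In such RNA, fewer cells of a type and less RNA per cell cannot be told apart. Genes appear here by the gene model identifiers of the deposited table, because 0 of them could be matched to a name in the reference table used, and no function is given for any of them.

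Library totals ran from 426899 counts (ZT10 individual C) to 909746 counts (ZT9 individual B). They averaged 742300 ± 108600 at ZT9 and 611600 ± 139900 at ZT10 (SD, n = 7 each). With every library thinned to 426899 counts, 16730 ± 385 gene models were detected at ZT9 and 16110 ± 450 at ZT10. ZT10 libraries also stood farther from the other libraries of their own hour and sample type, with a median absolute difference of 0.467 ± 0.094 log2 units per gene against 0.359 ± 0.051. An exact permutation test within sample type (two-sided, 1400 assignments) gave p = 0.0257 for detected gene models and p = 0.0143 for the distance. The adjusted p was 0.0514 for both over 4 measures. Distances within a group depend on each other, since each is taken to its group mates and was not recomputed for each assignment. The p for the distance is therefore only approximate. The share of counts in the 100 most abundant gene models was 27.6% ± 2.76 at ZT9 and 30.5% ± 2.87 at ZT10, and neither it nor the total passed either (adjusted p = 0.0886 for both in the exact permutation test). No pair among the 91 pairs of these libraries agreed within sampling noise, so all 14 were counted.

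From ZT9 to ZT10, 303 gene models rose and 25 fell in edgeR's quasi-likelihood test. That was 2.78% and 0.229% of the 10916 gene models with enough counts to be tested. The test compares the difference between hours with a spread between libraries that was estimated over all hours together. It holds sample type constant and calls a gene at a Benjamini-Hochberg adjusted p under 0.05. The genes that rose had a median change of 1.14 log2 units, or 2.21-fold, with quartiles of 0.85 and 1.60. Of them, 185 changed over 2-fold and 30 over 4-fold. The genes that fell had a median change of -1.01 log2 units, or 0.495 of the ZT9 level, and 13 of 25 changed over 2-fold. Over all genes tested the median change was -0.02, a value that the normalisation holds near 0. At an unadjusted p under 0.05, 1107 genes were higher and 497 lower.

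The count of 303 depended on which libraries entered the fit. It came from a fit in which all 66 libraries shared one estimate of the spread. With the 14 libraries fitted alone, edgeR called 1 rise and 0 falls (870 and 430 at an unadjusted p under 0.05), DESeq2 called 155 and 8, and limma with quality weights called 22 and 3. Without ZT10 pooled E the 66-library fit called 39 rises and 0 falls, all 39 among the 303.

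The rises were concentrated among abundant transcripts. Levels are given in CPM, that is counts scaled to a common library size with a normalisation factor. The 303 genes had a median level of 79.5 CPM, against 29.1 CPM over all genes tested and 27.9 CPM for the genes that fell. When the tested genes were ranked by level and divided into 4 equal groups, 17, 34, 72 and 180 of the rises lay in the groups from lowest to highest. These were 0.623%, 1.25%, 2.64% and 6.59% of each group. The falls were spread as 7, 6, 8 and 4. Measurement error moved with level, since the median standard error of the change was 0.40 log2 units in the lowest group and 0.20 in the highest, and its part in this gradient was not tested.

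**Figure D1:**
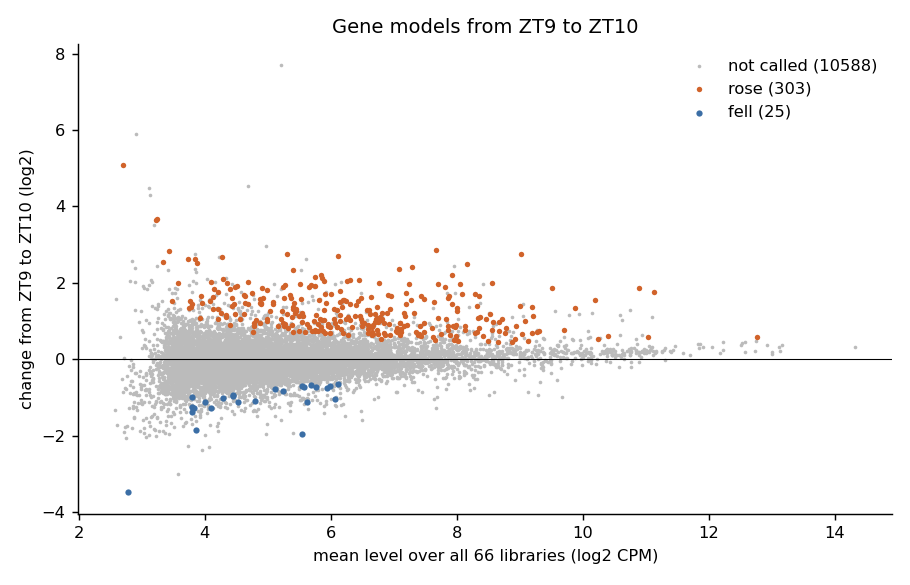
Change from ZT9 to ZT10 (vertical axis, log2) against mean level over all 66 libraries (horizontal axis, log2 CPM) for the 10916 gene models tested, with 303 rises in orange and 25 falls in blue. The rises extend to the most abundant genes at the right, while of the 25 falls 4 lie in the highest of 4 equal groups by level.

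NVE22379 had the smallest p of the genes that rose. At ZT9 it stood at 44.8, 52.3, 63.3 and 44.2 CPM in the individual libraries A to D and at 51.2, 32.8 and 46 CPM in the pools E to G. At ZT10 it stood at 135, 82.9, 100 and 113 CPM in the individual libraries and at 225, 77.9 and 78.7 CPM in the pools. Every ZT10 library was above every ZT9 library, and pooled E was the highest of all 14. The means were 47.8 ± 9.32 and 116 ± 52.3 CPM (SD, n = 7 each), a change of 1.29 log2 units (SE 0.20, edgeR adjusted p = 0.000127). NVE3061, a far more abundant transcript, was the next. It read 973, 964, 1230 and 644 CPM in the ZT9 individuals and 788, 834 and 768 CPM in the ZT9 pools. It read 3610, 2440, 1560 and 5540 CPM in the ZT10 individuals and 4260, 1670 and 2050 CPM in the ZT10 pools. Here too the hours did not overlap, and A, D and pooled E were the 3 highest ZT10 libraries. The mean went from 887 ± 191 to 3020 ± 1500 CPM (SD, n = 7 each), a change of 1.76 log2 units (SE 0.28, edgeR adjusted p = 0.000127). With the 14 libraries fitted alone the edgeR adjusted p was 0.0936 for NVE22379 and 0.0528 for NVE3061. In these libraries alone both passed in DESeq2 (adjusted p = 0.00177 and 2.25e-06) and in limma with quality weights (0.0412 and 0.0282).

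NVE228 was the single gene that passed with the 14 libraries fitted alone, at 1.69 log2 units (SE 0.22, edgeR adjusted p = 0.0119), and is given here because it was the whole of that count. In the fit of all libraries its mean went from 67.7 ± 25.2 to 216 ± 72.9 CPM (SD, n = 7 each), and all 7 ZT10 libraries were above all ZT9 libraries. NVE3018, chosen after its values were seen, had no count in any ZT9 library and 28 counts in 4 of the 7 ZT10 libraries. Against a floor of 3 counts over the ZT9 group the 28 counts made a scaled ratio of 12.7. That ratio makes no allowance for counting error or spread at ZT10, where single libraries held 0 to 13 counts. The changes of the other 302 rises ran from 0.45 to 3.66 log2 units.

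Among the falls, NVE10214 had the smallest p. It read 89.7, 45, 119 and 94 CPM in the ZT9 individuals and 93.4, 87.9 and 105 CPM in the ZT9 pools. It read 30.6, 37.1, 54.7 and 26.3 CPM in the ZT10 individuals and 38, 76.3 and 43.9 CPM in the ZT10 pools. The hours overlapped through ZT9 individual B, which lay below ZT10 individual C and ZT10 pooled F. The mean went from 90.5 ± 22.8 to 43.9 ± 17 CPM (SD, n = 7 each), a change of -1.05 log2 units (SE 0.24, edgeR adjusted p = 0.00914). NVE1185 followed with a fitted change of -3.48 log2 units (SE 0.87, edgeR adjusted p = 0.0115), but rested on few reads. Its counts were 7, 1, 11, 14, 21, 3 and 0 in the ZT9 libraries A to G and 1, 1, 0, 0, 1, 0 and 0 in the ZT10 libraries. Scaled by the summed normalised library sizes of each hour, the ratio of ZT10 to ZT9 from these 3 and 57 counts was 0.0714, with an exact 95% interval of 0.0143 to 0.219 that covers counting error only. NVE1185 also missed the threshold in limma (adjusted p = 0.156), with thinned counts (0.11) and without ZT9 pooled E (0.0642). In edgeR both falls missed the threshold without ZT10 pooled E (adjusted p = 0.0544 for both) and with the 14 libraries fitted alone (0.122 and 0.0958). With the 14 libraries alone NVE10214 passed in DESeq2 (adjusted p = 0.0081) and in limma (0.0282), while NVE1185 missed the threshold in limma (0.307).

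**Figure D2:**
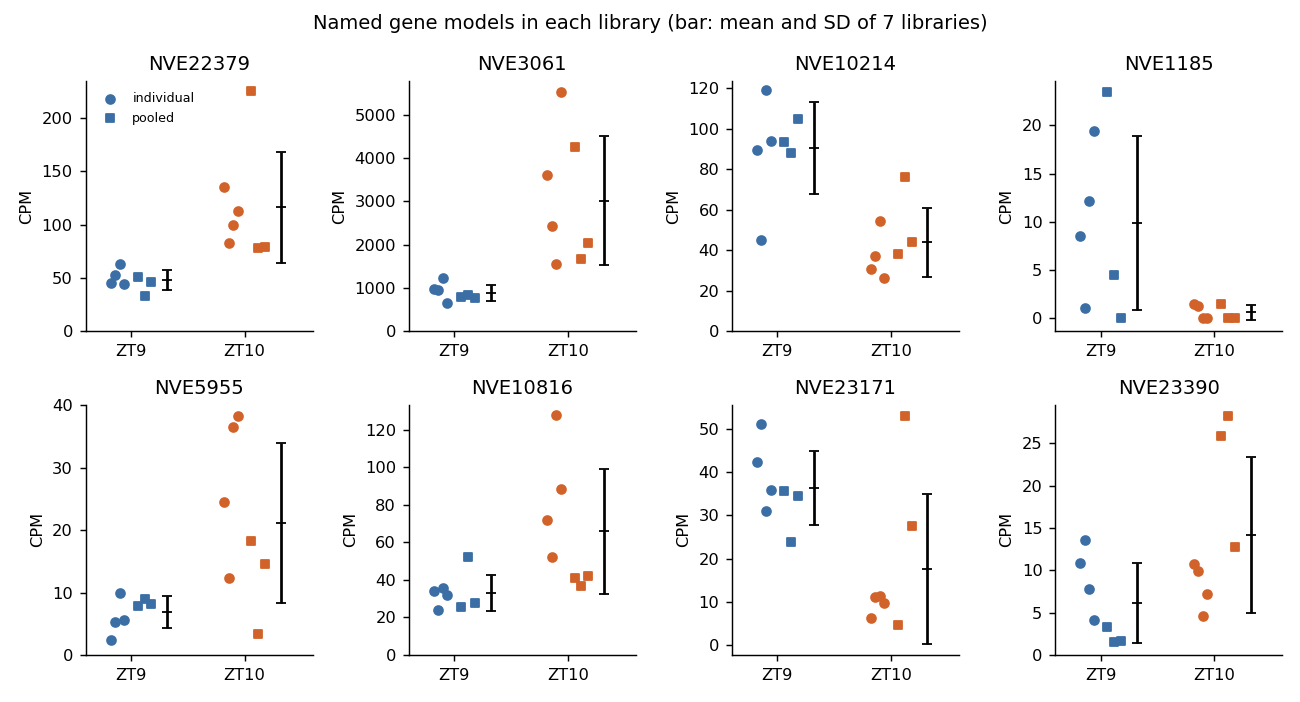
Level in CPM (vertical axis) of 8 gene models in each library of ZT9 and ZT10, with circles for individual and squares for pooled libraries and a bar for the mean and SD of 7 libraries. In the top row NVE22379 and NVE3061 do not overlap between hours, and the bottom row holds genes named for a call in one sample type, none of which passed the test of the difference between types.

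The 7 ZT10 libraries did not share the change equally. As a description of the called genes, pooled E was above all 7 ZT9 libraries in 298 of the 303 rises (98.3%), individual A in 296 (97.7%) and individual D in 289 (95.4%). Individual B was above all of them in 235 (77.6%), pooled G in 141 (46.5%), individual C in 140 (46.2%) and pooled F in 87 (28.7%). Over all genes tested, the same shares lay between 12.3% and 22.5%. Pooled E held the highest ZT10 level in 200 of the 303 genes (66%, against 16.4% of all genes tested). In 21 of the 303, all 7 ZT10 libraries lay above all ZT9 libraries. Over all genes tested this complete separation was met by 26 genes (0.238%) in the upward direction and by 8 (0.0733%) in the downward direction, and 3 of the 25 falls showed it.

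The 303 genes together held 3.08% to 4.18% of the counts of each ZT9 library. At ZT10 they held 7.65%, 5.47%, 4.66% and 7.52% in the individuals A to D and 9.40%, 3.85% and 4.64% in the pools E to G. Pooled F was therefore below the highest ZT9 library, individual C, while the other ZT10 libraries were above it. The means were 3.47% ± 0.384 at ZT9 and 6.17% ± 2.04 at ZT10 (SD, n = 7 each). Because the genes were called on these libraries, these shares describe the calls and do not test them.

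The libraries were also read with the library in question left out of the call. Each of the 14 libraries was left out in turn, genes were called on the rest, and the left-out library was compared with the libraries of its sample type at the other hour. For the ZT10 libraries the called rises had a median change of 2.23 log2 units in pooled E, 1.48 in individual A and 1.26 in individual D. It was 0.68 in individual B, 0.45 in pooled G, 0.27 in individual C and 0.13 in pooled F. Of the genes called, the share higher in the left-out library was 39 of 39 for pooled E and 276 of 463 for pooled F. The lists differ in length, from 39 genes without pooled E to 463 without pooled F, and the ZT9 libraries used for the comparison also took part in the call. A change above 0 and part of the order therefore follow from the construction, and the medians describe the libraries without testing them. For the 7 ZT9 libraries the medians lay between 0.65 and 1.18, and over all genes tested the medians lay between -0.06 and 0.05 for all 14 libraries. For the falls, the left-out pooled F gave 0.40 log2 units, in the opposite direction, with 45 of 154 genes lower.

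**Figure D3:**
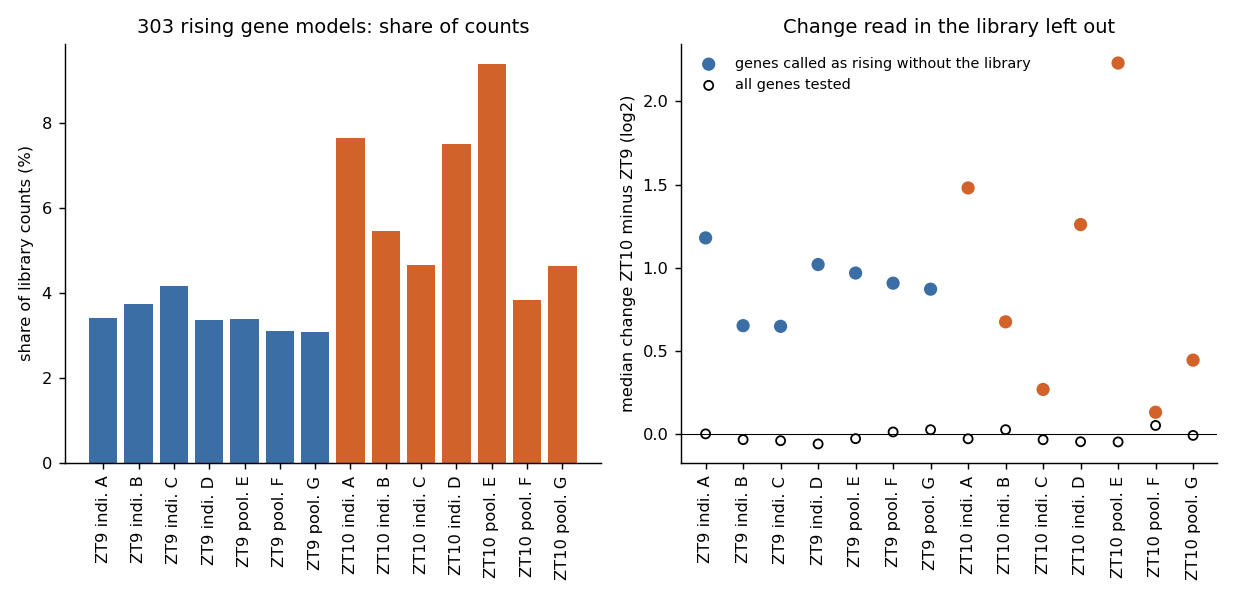
Left, share of library counts (%) held by the 303 gene models in each library, blue for ZT9 and orange for ZT10. Right, median log2 change of the genes called as rising without the library named on the horizontal axis, read in that library (filled), with all genes tested as open circles near 0.

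The libraries at the head of this order also stood apart in other properties. The other ZT10 libraries were too few and too close in these properties for an order to be read among them. Individual A, individual D and pooled E had the fewest detected gene models at equal depth among the 14, at 15824, 15633 and 15577, against 16279 to 16811 in the other ZT10 libraries. They also had the lowest normalisation factors, at 0.953, 0.911 and 0.908, against 1.01 to 1.06 in the other ZT10 libraries and 1.04 to 1.16 at ZT9. Their part in the result was not tested. Individual A had 702237 counts, individual D 470391 and pooled E 742775, against 426899 to 790053 in the other ZT10 libraries. With thinned counts 184 genes rose and 17 fell, in place of 303 and 25. Of these, 177 rises and 8 falls were also called at full depth. The part of depth in the order of the libraries was not tested. With library totals alone in place of normalisation factors, 138 genes rose and 45 fell, and rises made up 75.4% of the calls in place of 92.4%. That scaling moved the median change of all genes to -0.18 log2 units. With the score of each library on the leading axis of residual variation as covariate, 401 rose and 250 fell, so rises were 61.6% of the calls. That score was taken from the same counts after hour and sample type were removed. By construction it can lower the spread but hardly moves the change between hours, so the added calls are no independent result.

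The spread between libraries was larger at ZT10 than at ZT9 for the genes that rose. The estimate of the spread behind the calls was shared by all hours, so it does not follow the wider spread of ZT10. Their median SD of log2 CPM around the means of sample types within the hour was 0.38 at ZT9 and 0.75 at ZT10, and it was larger at ZT10 in 277 of 303 genes (91.4%). Over all genes tested the medians were 0.41 and 0.54, with a larger value at ZT10 in 67.3%. For the 25 falls the medians were 0.32 and 0.60. Both sets were called on these same libraries, so a wider spread at ZT10 may follow in part from the call. These values describe the called genes and do not test them. The median level of the 303 genes per library spanned 0.28 log2 units among the ZT9 libraries and 1.54 among the ZT10 libraries. The next widest hours were ZT7 (1.28) and ZT6 (1.02).

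Whether ZT9 was low or ZT10 was high was read against the mean of the other 8 hours. The 303 genes had a median level of -0.80 log2 units at ZT9 and 0.13 at ZT10 relative to that mean, where all genes tested had 0.04 and 0.01. ZT9 was below the other hours in 302 of the 303 genes (99.7%, against 45.8% of all genes tested). ZT10 was above them in 225 (74.3%, against 51.3%). ZT9 lay farther from the other hours than ZT10 did in 275 genes (90.8%, against 60.8%). Since the genes were called on the difference between these hours, distances of this sign follow in part from the call. The 25 falls went the other way, with 0.62 at ZT9 and -0.37 at ZT10. Among them ZT9 lay farther from the other hours in 19 (76%), and ZT10 was above the other hours in 1 (4%).

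The course of the 303 genes over the day was as follows. Their median level relative to the 8 other hours was 0.15 at ZT3, 0.21 at ZT4, 0.42 at ZT5 and 0.16 at ZT6. It was -0.14 at ZT7 and -0.27 at ZT8, before the low of ZT9, and after ZT10 it was -0.05 at ZT11 and -0.45 at ZT12. The genes therefore stood lower at ZT12 than at any hour but ZT9, on this median. Among the 8 hours outside the contrast, whose libraries entered the fit through the shared estimate of the spread, 178 of the 303 genes (58.7%) were highest at ZT5, against 14% of all genes tested. ZT4 was the highest for 69 (22.8%, against 20%), ZT6 for 23 and ZT8 for 0. The falls had their highest other hour mostly late, at ZT12 for 9 of 25 (36%, against 14% of all genes tested) and at ZT11 for 6 (24%, against 11.8%).

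**Figure D4:**
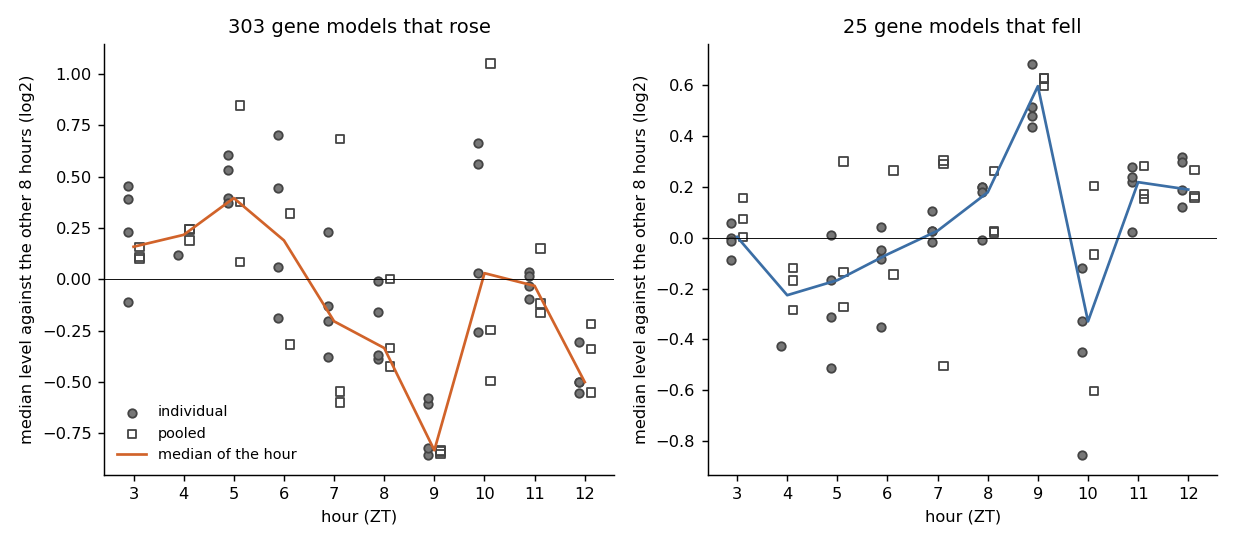
Median level of the 303 rises (left) and the 25 falls (right) in each of the 66 libraries, in log2 units relative to the mean of the 8 hours other than ZT9 and ZT10, by hour. At ZT9 the libraries of the left panel sit together between -0.857 and -0.58, and at ZT10 they spread from -0.495 to 1.05.

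The 2 named rises and the named fall with the smallest p had these levels at other hours. NVE22379 averaged 117 ± 26 CPM at ZT5 (n = 7), 78.9 ± 17.3 at ZT8 (n = 7), 92.6 ± 17.6 at ZT11 (n = 7) and 84 ± 19.9 at ZT12 (SD, n = 7), so its ZT10 mean of 116 was close to that of ZT5. NVE3061 averaged 3280 ± 1660 CPM at ZT6 (n = 6), 1740 ± 441 at ZT8 (n = 7), 2280 ± 637 at ZT11 (n = 7) and 1440 ± 345 at ZT12 (SD, n = 7). In the 52 libraries of other hours it ranged from 819 to 5930 CPM, and its highest ZT10 library, at 5540, lay inside that range. NVE10214 averaged 43.9 ± 17.3 CPM at ZT5, 61.6 ± 10.1 at ZT8, 57.7 ± 14.4 at ZT11 and 77.7 ± 26.9 at ZT12 (SD, n = 7 each).

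Set against ZT8, the hour before the low, ZT10 differed in few genes. By edgeR's quasi-likelihood test in the same fit, 14 gene models were higher at ZT10 than at ZT8 (0.128% of those tested) and 11 were lower (0.101%). At an unadjusted p under 0.05 the numbers were 719 and 572. This contrast shares the ZT10 libraries with the one against ZT9, so the values are set side by side only. The 303 rises had a median difference of 0.54 log2 units between ZT10 and ZT8, against 1.14 between ZT10 and ZT9, and 9 of them were called higher than at ZT8. The 25 falls had medians of -0.61 and -1.01, and 0 of them were called lower than at ZT8. For NVE22379 the difference from ZT8 was 0.57 log2 units (edgeR adjusted p = 0.175) and for NVE3061 it was 0.79 (adjusted p = 0.181). Without ZT10 pooled F the counts against ZT8 were 125 higher and 94 lower.

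The individual and pooled libraries were then tested apart, in a fit with 1 mean for each hour and sample type. In the individual libraries 5 gene models rose (0.0458% of those tested) and 1 fell (0.00916%), with 874 higher and 717 lower at an unadjusted p under 0.05. In the pools 16 rose (0.147%) and 0 fell (0%) in edgeR, with 681 higher and 292 lower at an unadjusted p under 0.05. Fitted alone, the pools gave 0 rises and the individuals 23. Leaving out 1 library gave 0 to 93 rises in pools, with 0 when any ZT9 pool or ZT10 pooled E was left out, 75 without ZT10 pooled G and 93 without ZT10 pooled F. In individuals it gave 0 to 18 rises, with 0 when any ZT9 library or ZT10 individual A or D was left out, 13 without ZT10 individual C and 18 without ZT10 pooled E. No gene was in both lists of calls. The change itself did not differ detectably between sample types, since 0 genes (0%) passed the edgeR test of the difference, with a smallest adjusted p of 0.75 and 704 genes at an unadjusted p under 0.05. Precision was limited, as the median standard error was 0.39 log2 units in individuals, 0.45 in pools and 0.59 for their difference. For a gene of median precision, a difference between sample types of a log2 unit would thus lie within 2 standard errors.

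Most genes that were higher at ZT10 in one sample type at an unadjusted p under 0.01 were also higher in the other. The sample types have no library in common. Across all 10916 genes, which are not independent, the changes in individuals and pools had a Pearson r of 0.13. Of 320 genes higher at ZT10 in individuals at an unadjusted p under 0.01, a limit chosen after the data were seen, 280 (87.5%) were also higher in pools, against 55.1% of all genes tested. Of these, 146 (45.6%) had an unadjusted p under 0.05 in the same direction in pools, against 6.24%. Read the other way, 253 of 275 genes higher in pools (92%, against 47.9%) were higher in individuals, and 141 (51.3%, against 8.01%) had an unadjusted p under 0.05. For the decreases the shares lay nearer to those of all genes tested. Of 164 genes lower in individuals, 96 (58.5%, against 44.8%) were lower in pools and 6 (3.66%, against 2.67%) had an unadjusted p under 0.05. Of 73 genes lower in pools, 41 (56.2%, against 52.1%) were lower in individuals and 2 (2.74%, against 6.57%) had an unadjusted p under 0.05. The 303 joint rises had median changes of 1.08 log2 units in individuals and 1.24 in pools. Their level was uneven within each type. Relative to the 8 other hours it was 0.663, 0.0293, -0.258 and 0.56 in the ZT10 individuals A to D. In the ZT10 pools E to G it was 1.05, -0.495 and -0.247, and at ZT9 it was -0.857 to -0.58. Genes that move together in a few libraries are not separate pieces of evidence, so the shares above describe and do not test the agreement.

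**Figure D5:**
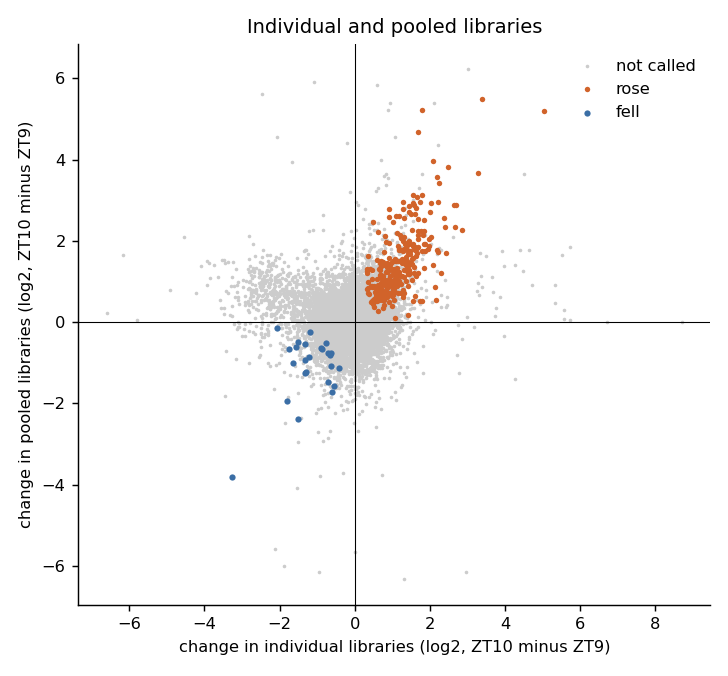
Change from ZT9 to ZT10 in pooled libraries (vertical axis, log2) against that in individual libraries (horizontal axis, log2) for the gene models tested. The 303 genes that rose (orange) all lie in the upper right corner and the 25 that fell (blue) in the lower left, as the joint call favours.

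NVE5955 and NVE10816 had the smallest p among the rises of individual animals. NVE5955 read 2.42, 5.23, 9.99 and 5.53 CPM in the ZT9 individuals and 24.5, 12.4, 36.5 and 38.3 CPM in the ZT10 individuals, with no overlap. Its change was 2.16 log2 units in individuals (SE 0.46, edgeR adjusted p = 0.0415) and 0.54 in pools (adjusted p = 0.91), where it went from 7.78, 8.94 and 8.21 to 18.2, 3.31 and 14.6 CPM. NVE10816 read 33.9, 24, 35.5 and 31.8 CPM in the ZT9 individuals and 72, 52, 128 and 88.6 CPM in the ZT10 individuals, again with no overlap. Its change was 1.42 log2 units in individuals (SE 0.30, edgeR adjusted p = 0.0415) and 0.19 in pools (adjusted p = 0.951), where ZT9 stood at 25.6, 52.1 and 27.9 CPM and ZT10 at 41, 36.5 and 42.1 CPM. In both genes individual C was among the 2 highest ZT10 individuals, unlike in the 303 genes as a whole. Of 18 other settings, 6 kept each of these calls, and the adjusted p reached 0.299.

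NVE23171 was the single gene that fell in individuals. It stood at 42.4, 51.2, 31.1 and 35.9 CPM at ZT9 and at 6.13, 11.1, 11.4 and 9.58 CPM at ZT10, a change of -2.06 log2 units (SE 0.43, edgeR adjusted p = 0.0415). The pools went from 35.6, 23.8 and 34.5 to 4.56, 53 and 27.5 CPM, so pooled E was as low as the individuals and pooled F was the highest library of the hour (-0.16 log2 units, adjusted p = 0.968). The test of the difference between sample types gave an unadjusted p of 0.00325 and an adjusted p of 0.75 in edgeR. This call too held in 6 of 18 other settings, with changes from -2.18 to -1.88 log2 units and an adjusted p of up to 0.299.

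NVE23390 and NVE22379 had the smallest p among the rises of the pools. NVE23390 went from 3.34, 1.49 and 1.64 CPM in the ZT9 pools, which were counts of 3, 1 and 1, to 25.8, 28.2 and 12.8 CPM in the ZT10 pools. The change was 3.20 log2 units in pools (SE 0.64, edgeR adjusted p = 0.028). In individuals it read 10.9, 13.6, 7.77 and 4.15 CPM at ZT9 and 10.7, 9.90, 4.56 and 7.18 CPM at ZT10, with overlap, and a change of -0.13 log2 units. The test of the difference gave an unadjusted p of 0.000168 and an adjusted p of 0.75 in edgeR, and the gene was not called over both types together (adjusted p = 0.123). NVE22379 changed by 1.55 log2 units in pools (SE 0.31, edgeR adjusted p = 0.028) and by 1.07 in individuals (adjusted p = 0.0987). Without ZT10 pooled E its change in pools was 0.85 log2 units (adjusted p = 0.934), and that of NVE23390 was 3.08 (adjusted p = 0.28).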

How the data were processed

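Whole-number counts per gene model were used as deposited, in a table with 24265 gene models for 66 libraries. The labels credit the library protocol to Meyer and colleagues and the genome to Putnam and colleagues. The submitters' processing notes name Bowtie2 without a version. How reads were counted, on which annotation, by strand or not, and with or without duplicates is not given in the sources used here. Counts may thus hold amplified copies, and reads of near-identical or overlapping gene models may be split or lost.

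The expression filter of edgeR (minimum count 10) left 10916 gene models that held 97.2% of the counts. edgeR 4.0.16 in R 4.3.3 was run with TMM factors and the robust quasi-likelihood test on all 66 libraries, with hour and sample type as terms (55 residual degrees of freedom). Individual and pooled libraries were tested in a fit with 20 groups of hour and type (46 residual degrees of freedom). Each contrast was adjusted over all genes by Benjamini and Hochberg with a threshold of 0.05. CPM used TMM factors, and log2 CPM a prior count of 2. Replicates were separate animals or pools, per the labels. The fit with hour and sample type was tried on simulated counts that had the same spread at every hour, unlike these data. The fit with 20 groups was not tried in this way. Identifiers were named by the smallest p, at most 2 that rose and 2 that fell in each contrast.

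Replicate letters are shared between the hours. Same-letter libraries had correlations of deviations from -0.41 to 0.49, with 3 of 7 over 0.1, so the letters were not taken to pair the libraries. Alternatives used DESeq2 1.42.0, limma 3.58.1, other scalings, filters and sets of libraries. The comparison, the lists and the tests were chosen with earlier results of these data known.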

Additional observations from a re-analysis of the deposited data

Results flagged for a closer look

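One library stood apart from its group. On the leading axis of variation that remained after hour and sample type were removed, which held 29.5% of the residual variance, ZT10 individual B scored 32.27, while the other 3 individuals of the hour scored between -26.79 and -21.53. The gap was 0.911 of the range of the group, above the 95% limit of Dixon's test for 4 samples. In all, 32 pairs of a group of 4 and a measure were examined in this way and 1 was marked, and chance marks about 1 in 20. ZT9 individual B (71.53) and ZT10 pooled F (85.26) scored higher still.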

How the results depend on the processing

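The counts of rises and falls moved with the libraries and settings. Where the cause of a shift is not plain from fewer libraries or genes, the cause was not tested. Limma with quality weights gave 166 rises, no filter 166 rises and 12 falls, thinned counts 184 rises, library totals alone 138 rises and 45 falls, and the axis score as covariate 250 falls. Fitted alone, the 14 libraries gave 1 rise and 0 falls in edgeR, 155 and 8 in DESeq2 and 22 and 3 in limma. Without ZT9 individual B and ZT10 pooled F there were 93 falls. With each library left out in turn, rises ran from 39 (without ZT10 pooled E) to 463 (without ZT10 pooled F) and falls from 0 to 154. Without ZT10 individual A, ZT10 individual D or ZT9 pooled E, the rises were 162, 189 and 183. In individuals, no filter and edgeR's earlier method each gave 0 rises and 0 falls, individuals alone gave 23 and 5, and leaving out a library gave 0 to 18 rises and 0 to 2 falls. In pools, no filter and the pools fitted alone each gave 0 rises, and leaving out a library gave 0 to 93 rises and 0 to 7 falls. Against ZT8, no filter gave 4 higher, and leaving out a library gave 3 to 125 higher and 5 to 94 lower. The difference between sample types gave 0 calls under every alternative run. With the replicate letter as a block, 280 genes rose and 27 fell, and 272 of the rises were among the 303. Of the 7 ZT10 libraries, 3 correlated best with their own letter. Detected gene models differed by -737.2 to -531.5 and the distance by 0.08666 to 0.127 with a library left out. Both passed the threshold for some libraries left out, with only an approximate p for the distance. The 9 changes of named genes, chosen by smallest p, were each recomputed in 18 to 32 settings. Of these 217 values none changed direction, and 159 stayed past the threshold. Depth limits genes with few counts, where 1 count was worth 1.05 to 2.39 CPM.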
